A study of Caenorhabditis elegans with 2 samples.

Results

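The regions described here lie at the 5′ ends of small non-coding RNA genes of Caenorhabditis elegans. A region belonged to the set when its summit, the base of highest signal, was at most 250 bp from the start (5′ end) of a nuclear gene annotated by Ensembl as tRNA, snoRNA, snRNA or miRNA. Of the 30000 regions in the authors' combined list, 584 did so (1.95%), and they lay at 556 of the 1348 genes of the 4 classes. There were 318 regions at tRNA genes, 159 at snoRNA genes, 50 at snRNA genes and 60 at miRNA genes. 3 regions counted in more than one class.

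The data came from chromatin immunoprecipitation sequencing (ChIP-seq) with an antibody against GFP on whole hermaphrodite L1 larvae, the first larval stage, in 2 biological replicates that form 1 group. The animals were of strain OP525, with the genotype unc-119(tm4063) III and the integrated transgene wgIs525, which makes C04F5.9 with GFP and FLAG at its C-terminal end. They were starved at L1 after bleaching, and were collected 6 hours after that synchronisation. Because the tagged protein comes from a transgene in whole animals, the lists do not say in which cells a region was bound or how the untagged protein would bind. There was no other condition, and the number of reads is unknown.

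Small non-coding RNA genes are short and are read by dedicated promoters. tRNA genes are transcribed by RNA polymerase III from the A box and B box inside the gene. snRNA genes, whose products build the spliceosome, use an upstream proximal sequence element that the SNAPc complex recognises, and the nematode spliced leader RNAs SL1 and SL2, which are joined to the 5′ ends of many mRNAs, are counted among them here. snoRNAs guide chemical modification of ribosomal and other RNAs and are often encoded in introns of other genes. miRNA genes give short RNAs that repress mRNAs, and are transcribed by RNA polymerase II from promoters that can lie far from the hairpin whose 5′ end was used here.

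The strongest region at an snRNA gene was at sls-2.1, a gene for the SL2 spliced leader RNA, and bases before several SL2, snRNA and snoRNA genes shared short words. The stretches below are those directly before the 5′ end of 3 of the strongest SL2 genes, read 5′ to 3′ on the gene's strand from the WBcel235 assembly, which is ce11. Capitals mark the word TGTCNG where it occurs.
sls-2.1, chrII:5844785-5844864, plus strand: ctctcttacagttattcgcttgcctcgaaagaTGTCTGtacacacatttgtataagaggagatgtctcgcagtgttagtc
sls-2.2, chrII:5543518-5543597, plus strand: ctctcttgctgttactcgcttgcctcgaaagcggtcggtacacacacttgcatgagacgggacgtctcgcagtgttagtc
sls-2.3, chrII:5544274-5544353, minus strand: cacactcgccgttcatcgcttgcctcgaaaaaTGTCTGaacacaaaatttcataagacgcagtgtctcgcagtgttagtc

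A longer arrangement was found at other snRNA genes with strong regions, namely the word GNAACCC, any 6 bases, and then TGTCNG. The stretches are shown because they place these words, in capitals, before an SL2 gene and 3 other snRNA genes.
sls-2.8, chrIII:12250385-12250464, plus strand: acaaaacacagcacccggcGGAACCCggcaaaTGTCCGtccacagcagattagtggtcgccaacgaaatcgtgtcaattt
sup-6, chrII:12944968-12945047, minus strand: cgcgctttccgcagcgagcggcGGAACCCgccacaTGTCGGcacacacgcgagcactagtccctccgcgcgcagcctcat
W05B2.8, chrIII:10989599-10989678, plus strand: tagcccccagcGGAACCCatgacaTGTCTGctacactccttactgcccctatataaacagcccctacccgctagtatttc
F54D8.7, chrIII:5080899-5080978, minus strand: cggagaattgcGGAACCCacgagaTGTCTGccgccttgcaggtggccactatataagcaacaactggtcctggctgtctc

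The same paired words, in capitals, lay before these genes annotated as snoRNA. Of them, smy-2 has the symbol of a family whose members are mostly annotated as snRNA.
Y53F4B.47, chrII:15025894-15025993, minus strand: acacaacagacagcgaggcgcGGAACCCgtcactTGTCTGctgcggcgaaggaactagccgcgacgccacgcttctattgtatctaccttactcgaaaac
ZK994.7, chrV:8500479-8500578, plus strand: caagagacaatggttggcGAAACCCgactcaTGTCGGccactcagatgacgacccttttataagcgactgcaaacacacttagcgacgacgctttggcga
Y67A10A.14, chrIV:14327122-14327221, minus strand: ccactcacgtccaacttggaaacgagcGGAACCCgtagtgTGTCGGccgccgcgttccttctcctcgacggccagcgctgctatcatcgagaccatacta
smy-2, chrIV:9511467-9511566, minus strand: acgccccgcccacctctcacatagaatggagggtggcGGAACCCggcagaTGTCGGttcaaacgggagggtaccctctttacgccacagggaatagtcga

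Other snoRNA genes with strong regions carried the word GGTTCGA, part of the tRNA B box, shortly before their 5′ end. It is in capitals in these stretches.
F12F6.11, chrIV:11549865-11549964, minus strand: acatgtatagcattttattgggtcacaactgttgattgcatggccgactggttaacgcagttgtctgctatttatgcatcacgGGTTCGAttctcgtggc
M106.6, chrII:10840217-10840316, plus strand: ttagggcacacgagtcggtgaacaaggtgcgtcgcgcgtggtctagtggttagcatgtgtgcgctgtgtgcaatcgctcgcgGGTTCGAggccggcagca

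For comparison, the whole sequences of 4 tRNA genes at strong regions follow, with GGTTCGA in capitals where present.
R04A9.t1 (tRNA-Gln), chrX:410391-410462, plus strand: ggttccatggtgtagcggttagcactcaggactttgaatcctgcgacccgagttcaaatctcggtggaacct
C18A11.t2 (tRNA-Arg), chrX:8036685-8036757, minus strand: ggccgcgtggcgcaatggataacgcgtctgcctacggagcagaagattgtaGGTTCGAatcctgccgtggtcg
K11H12.t1 (tRNA-Sec), chrIV:658181-658266, plus strand: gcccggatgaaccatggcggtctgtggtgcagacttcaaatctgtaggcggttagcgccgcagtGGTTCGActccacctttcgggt
F15G9.t1 (tRNA-Ala), chrX:9743589-9743660, plus strand: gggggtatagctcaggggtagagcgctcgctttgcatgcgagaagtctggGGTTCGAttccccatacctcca

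A region was found at a larger share of tRNA genes than of any of the other 3 classes. Of 612 tRNA genes, 311 had one (50.8%; 95% exact binomial interval 46.8 to 54.8%). The share was 146 of 346 snoRNA genes (42.2%; 36.9 to 47.6%), 41 of 129 snRNA genes (31.8%; 23.9 to 40.6%) and 58 of 261 miRNA genes (22.2%; 17.3 to 27.8%). The interval of tRNA genes overlapped that of snoRNA genes but not those of the other two classes, and the intervals of snRNA and miRNA genes overlapped each other. These intervals cover counting error over genes only, and neighbouring genes can share a region. Among protein-coding genes, 4988 of 19973 had a region by the same rule (25%), measured from the 5′ end of any annotated transcript. The share was 22.8% of genes annotated ncRNA, 20.6% of lincRNA genes, 11.3% of piRNA genes and 7.85% of pseudogenes. miRNA genes therefore stood within the range of protein-coding, ncRNA and lincRNA genes, and tRNA and snoRNA genes stood above it.

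**Figure D1:**
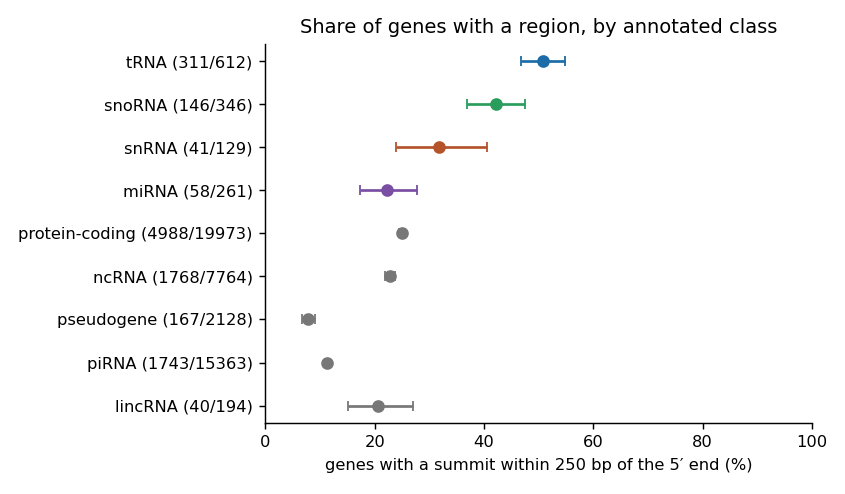
Share of genes with a region summit within 250 bp of the 5′ end (x axis, percent) for the 4 small RNA classes and 5 other annotated classes; points are shares, bars are 95% exact binomial intervals, and genes with a region over all genes are in brackets. tRNA genes stand at 50.8% and pseudogenes at 7.85%.

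In each replicate's own list the order of the classes was the same. With replicate 2 alone a region was found at 47.4% of tRNA, 39.9% of snoRNA, 25.6% of snRNA and 23.4% of miRNA genes. With replicate 1 alone the shares were 46.6%, 42.2%, 32.6% and 23.0% in the same order.

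The classes ordered differently by strength. The authors gave each region a signal value on a scale of the calling run, so regions were ranked by it within the list, 1 being the highest. The median rank was 2874 for snoRNA regions, 3675.5 for snRNA regions, 4730.5 for tRNA regions and 10997.5 for miRNA regions, against 15000.5 for the whole list and 10963 for regions at protein-coding 5′ ends. Quartiles of the ranks were 974 and 11691 at snoRNA genes, 2019 and 13319.5 at tRNA genes and 3901.75 and 19543.25 at miRNA genes, so the classes overlapped widely. Among regions with no protein-coding 5′ end within 500 bp the median rank was 3100 for snoRNA and 2501 for snRNA regions, which turns their order, and 5104 for tRNA and 12004 for miRNA regions. The highest rank reached was 19 at a miRNA gene, 29 at an snRNA gene, 58 at a snoRNA gene and 328 at a tRNA gene. tRNA regions were thus numerous and of middle strength, with none among the strongest.

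**Figure D2:**
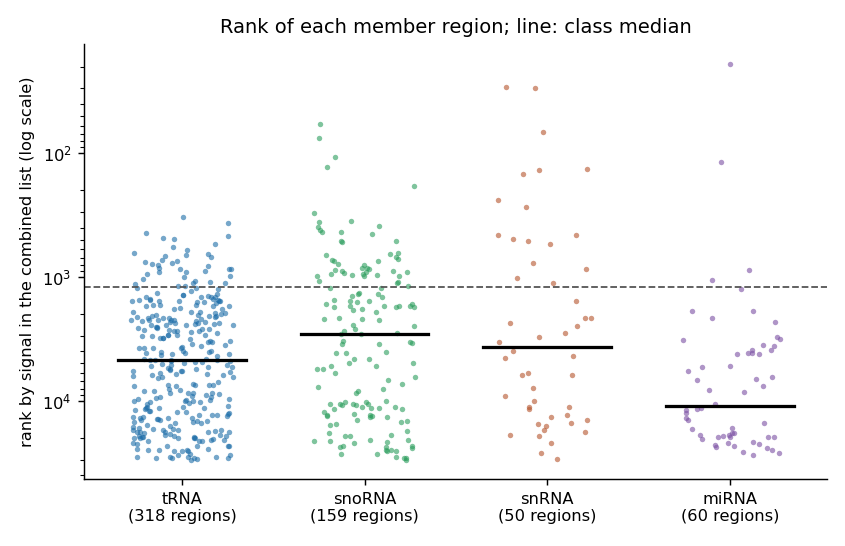
Rank by signal of each member region in the combined list (y axis, log scale, strongest at the top) by class; each point is a region, the black line is the class median and the dashed line is rank 1205, the last optimal region. Median ranks were 4730.5, 2874, 3675.5 and 10997.5 from left to right, and no tRNA point lies above rank 328.

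The authors' optimal list was thresholded by IDR, the irreproducible discovery rate, which scores whether a region ranks alike in the replicates. Its 1205 regions were also the first 1205 of the combined list by signal. Of all combined-list regions 4.02% were themselves optimal, and 5.06% overlapped an optimal region by at least 1 bp, a count that adds weaker regions at the side of a strong one. Of snRNA regions 23 of 50 overlapped an optimal region (46.0%; 31.8 to 60.7%), and 17 were themselves optimal. Of snoRNA regions 54 of 159 overlapped one (34.0%; 26.6 to 41.9%), and 47 were optimal. Of tRNA regions 47 of 318 overlapped one (14.8%; 11.1 to 19.2%), and 39 were optimal. Of miRNA regions 5 of 60 overlapped one (8.33%; 2.76 to 18.4%), and 4 were optimal. Away from protein-coding 5′ ends by over 500 bp, 2 of 41 miRNA regions overlapped one (4.88%). The snRNA and snoRNA intervals lay above the tRNA interval, and the miRNA interval reached down past the share in the whole list. For regions at protein-coding 5′ ends the share was 13.6%, close to that of tRNA regions. Counted over genes, an optimal region lay at 47 snoRNA genes (13.6%), 15 snRNA genes (11.6%), 46 tRNA genes (7.52%) and 4 miRNA genes (1.53%), beside 3.71% of protein-coding genes.

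Regions at small RNA genes were found again in the replicates more often than the list as a whole. Of all combined-list regions 81.8% overlapped a region of replicate 1 and 60% one of replicate 2. The shares in replicate 1 were 96.0% for snRNA, 93.1% for snoRNA, 90.6% for tRNA and 86.7% for miRNA regions. In replicate 2 they were 80%, 86.8%, 84.3% and 71.7% in the same order. The intervals were wide for the 2 smaller classes, 66.3 to 90.0% for snRNA and 58.6 to 82.5% for miRNA regions in replicate 2, and both the latter and that for miRNA regions in replicate 1 (75.4 to 94.1%) held the share of the whole list. A region was found in both replicates for 80.5% of snoRNA, 76.0% of snRNA, 75.8% of tRNA and 61.7% of miRNA members, against 46.9% of the list and 59.8% of regions at protein-coding 5′ ends. Of the 584 members, 91 were found in replicate 1 alone, 45 in replicate 2 alone and 6 in neither. Of all 30000 regions the counts were 10484, 3938 and 1521 in the same order. Of all optimal regions 99.7% recurred in replicate 2, and the classes differ in rank; the part of rank in these shares was not tested.

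**Figure D3:**
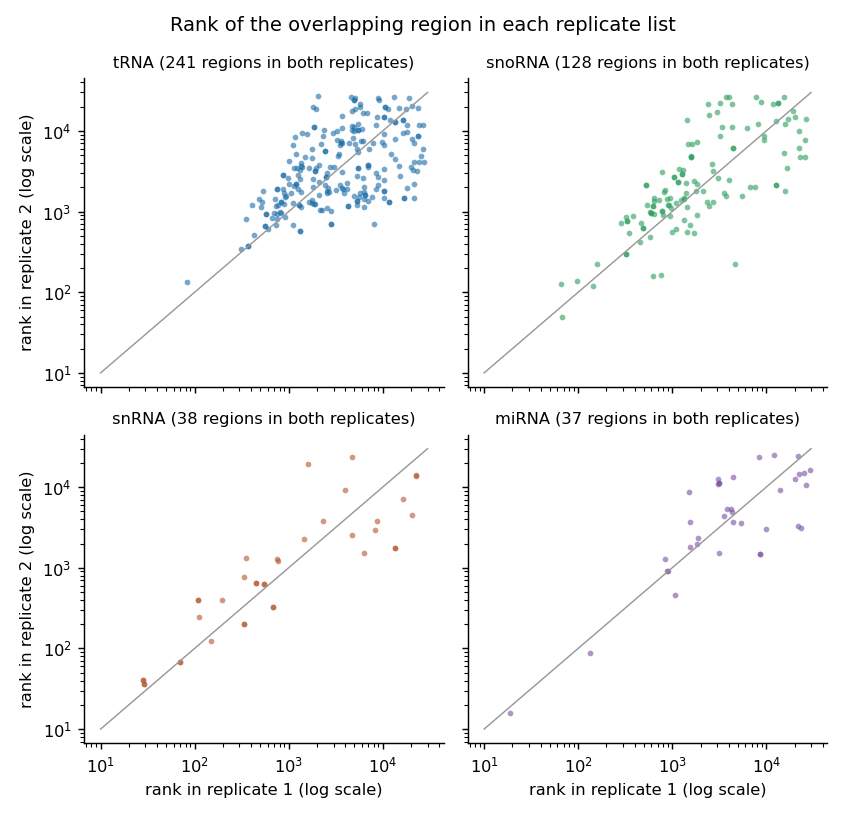
Rank of the highest-signal overlapping region in replicate 1 (x axis) and replicate 2 (y axis), both on log scales, for members found in both replicates; the grey line marks equal ranks. Points lie near the line at the strong end and scatter widely below it, most of all for tRNA regions.

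Where a member overlapped a region of each replicate, the Spearman correlation between its 2 replicate ranks was 0.89 over 38 snRNA regions, 0.76 over 128 snoRNA regions, 0.61 over 37 miRNA regions and 0.53 over 241 tRNA regions. It was 0.53 over all 14057 such regions of the list. The points of a class share their libraries and some share a neighbouring strong region, so these values describe the lists only.

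Among snRNA genes the SL2 genes stood out. 15 of the 18 sls-2 genes had a region (83.3%; 58.6 to 96.4%), and at 7 of them it was optimal. None of the 12 sls-1 genes, which encode SL1 RNA, had one, an interval of 0 to 26.5%. Of those 12, 10 share one identical sequence, and most lie in groups of 7 and 4 neighbours on chromosome V. The interval treats these copies as independent. Whether reads could be placed at them was not tested, so a lack of regions there may not mean a lack of binding. Of the 10 smy genes in this class 1 had a region, at smy-1 (rank 11766), which overlaps the stronger region at smy-2. Both smy-2 (rank 453) and smy-3 (rank 1612), annotated as snoRNA, had regions and are not counted here. Of the other 89 snRNA genes 25 had a region (28.1%; 19.1 to 38.6%). Families were split by symbol after these values had been seen.

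At sls-2.1, on the plus strand of chromosome II at 5844865 to 5844974, the signal was 536.1 in the combined list (rank 29), 378.2 in replicate 1 (rank 28) and 155.1 in replicate 2 (rank 41), with the summit 58 bp before the 5′ end. sls-2.4 had a combined signal of 535.4 (rank 30), with 370.0 in replicate 1 and 167.9 in replicate 2. The region at sls-2.2 had a combined signal of 346.0 (rank 68) and ranked 70 and 67 in the replicates. These SL2 regions kept nearly the same place in both replicates. Further down were sls-2.8 (rank 135), sls-2.3 (513), sls-2.9 (871) and sls-2.7 (1019), all optimal. Replicates 1 and 2 ranked sls-2.8 at 148 and 123. They ranked sls-2.3 at 349 and 1304, sls-2.9 at 770 and 1216, and sls-2.7 at 756 and 1299. The region at sls-2.9 is also the one at the tRNA gene M01E5.t1. The summit at sls-2.7 lay 168 bp, and that at sls-2.8 lay 214 bp, from a protein-coding 5′ end. Replicate lists were called separately, so signals compare within a list and not between lists.

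The other strong snRNA regions lay at genes that the annotation gives by clone or genetic name. sup-6 had a combined signal of 245.6 (rank 138), with rank 112 in replicate 1 and 248 in replicate 2. W05B2.8 had a signal of 238.1 (rank 147), with ranks of 109 and 403. sup-39 and the overlapping mir-1831, annotated as an snRNA despite its symbol, shared a region of rank 240, which ranked 197 and 399. C52E4.8 followed at rank 275, F38E11.10 at 461, F54D8.7 at 499 and F32B5.9 at 545. These regions were optimal, and W05B2.8, sup-6, sup-39 and F54D8.7 ranked higher in replicate 1 than in replicate 2, while C52E4.8 and F38E11.10 ranked higher in replicate 2. W05B2.8 belongs to a set of 14 identical genes, of which 4 had a region. F54D8.7 belongs to a set of 3 identical genes, and C52E4.8 and F38E11.10 each to a set of 2. Whether reads could be told apart between such copies was not tested. The 2 members nearest the 250 bp limit were at F54D8.7, 246 bp before it, and sls-2.6, 234 bp before it, at ranks of 16013 and 11179. Just outside lay regions 328 bp from sls-2.17 (rank 11483) and 341 bp from smy-1 (rank 453), of which the latter is the region at the snoRNA gene smy-2.

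The paired words GNAACCC, 6 bases, TGTCNG lay within 120 bases before the 5′ end, on the gene's strand, at 24 of 129 snRNA genes (18.6%) and 22 of 346 snoRNA genes (6.36%). They were found at 1 of 612 tRNA genes, 2 of 261 miRNA genes and 3 of 19973 protein-coding genes. The words were chosen after the sequences at strong members had been seen, so their shares are a description. Of the 24 snRNA genes with them 14 had a region (58.3%; 36.6 to 77.9%), and of the 105 without them 27 did (25.7%; 17.7 to 35.2%). Of the 22 snoRNA genes with them 16 had a region (72.7%; 49.8 to 89.3%), of which 12 were optimal, and of the 324 without them 130 did (40.1%; 34.7 to 45.7%). The strong members from which the words were picked are among the genes counted, so a higher share with the words is partly fixed by that choice. The first word began at a median of 61 bases before the 5′ end in snRNA genes and 62 in snoRNA genes with a region. The summit lay a median of 26 bp downstream of the middle of the paired words in snRNA genes and 22.5 bp in snoRNA genes.

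Around summits, 60 bases each way and on both strands, the paired words lay in 20% of snRNA regions and 8.81% of snoRNA regions. They lay in 59 of all 30000 regions (0.197%), in 1.49% of optimal regions and in none of the tRNA regions. Members lie near genes of these classes by the rule, so the higher shares partly follow from it. The second word alone, TGTCNG, lay before 79 of 129 snRNA genes (61.2%), where 33 had a region (41.8%), against 8 of the 50 snRNA genes without it (16.0%). It lay before 6.09% of protein-coding genes. Around summits TGTCNG lay in 58% of snRNA regions, 15.2% of all regions and 25.3% of optimal ones. Of genes with it upstream, 59.7% of snoRNA, 47.1% of tRNA and 17.9% of miRNA genes had a region. Without it the shares were 38.0%, 51.3% and 22.7%.

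**Figure D4:**
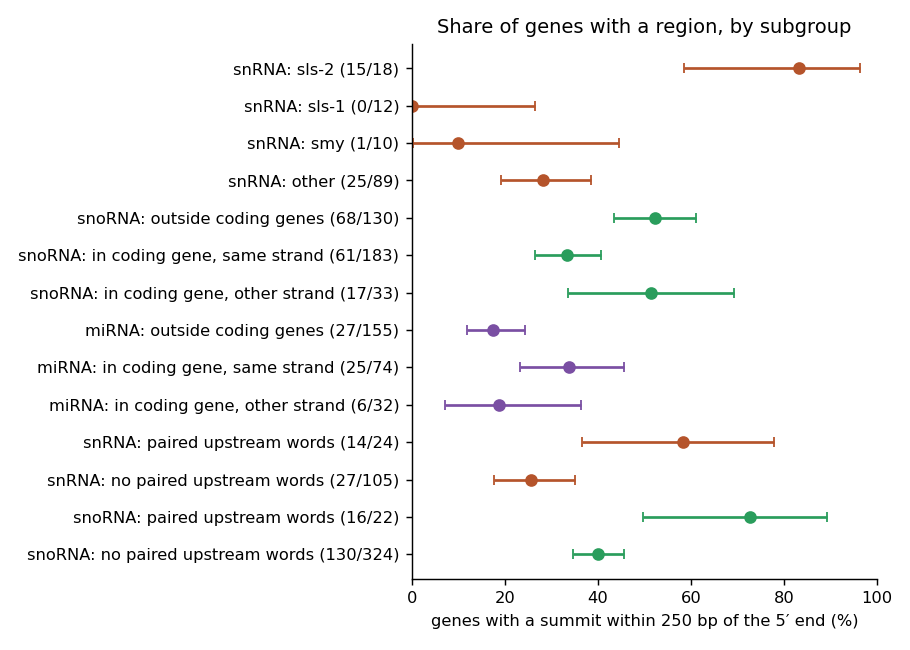
Share of genes with a region (x axis, percent) for subgroups of snRNA, snoRNA and miRNA genes; points are shares, bars are 95% exact binomial intervals, and counts are in brackets. Paired upstream words are GNAACCC, 6 bases and TGTCNG before the gene. The sls-2 genes reach 83.3% and the sls-1 genes 0, and snoRNA genes outside coding genes lie above those inside one on the same strand.

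Among snoRNA genes, those outside protein-coding genes had a region more often than those inside a host gene on its strand. The share was 68 of 130 genes outside (52.3%; 43.4 to 61.1%), 17 of 33 inside a protein-coding gene of the other strand (51.5%; 33.5 to 69.2%) and 61 of 183 inside one of the same strand (33.3%; 26.6 to 40.7%). The first and last intervals did not overlap. An optimal region lay at 23 of the 130 snoRNA genes outside, 5 of the 33 on the other strand and 19 of the 183 on the same strand. Over all snoRNA genes it was 47 of 346 (13.6%). On chromosome X 5 of 33 snoRNA genes had a region (15.2%; 5.11 to 31.9%), and shares on the other chromosomes ran from 38.9% on III (25.9 to 53.1%) to 49.1% on V (35.4 to 62.9%), so the interval on X lay below that on V but not that on III.

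The strongest snoRNA region was at F54E7.10, with a combined signal of 377.1 (rank 58) and ranks of 68 and 50 in the replicates. Its summit lay 241 bp before the snoRNA and 132 bp from the 5′ end of ska-3, a protein-coding gene. F59C6.15 followed with a signal of 332.7 (rank 75), ranks of 65 and 125 in the replicates, and a summit 69 bp before the gene and 791 bp from the nearest protein-coding 5′ end. At Y53F4B.47, whose paired words are shown above, the signal was 278.6 (rank 108), with ranks of 98 and 137. That summit was 122 bp from the 5′ end of cmtr-1. F12F6.11, which carries the B box word, had a signal of 252.3 (rank 129), with ranks of 143 and 118, and M106.6 had 217.0 (rank 185), with ranks of 159 and 221. Both of these lay over 1 kb from a protein-coding 5′ end, at 1175 and 3407 bp. F25H2.15 (rank 304), F39B2.14 (353), Y38F2AR.14 (362), ZK994.7 (386), M7.15 (395), Y67A10A.14 (418) and C36E8.11 (436) completed the 12 strongest, all optimal. The replicates placed some of these apart, as at F39B2.14, ranked 630 in replicate 1 and 158 in replicate 2, and M7.15, ranked 762 and 162.

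The B box word GGTTCGA lay within 120 bases before 12 snoRNA genes, 10 of which had a region (83.3%; 51.6 to 97.9%), beside 136 of the 334 without it (40.7%; 35.4 to 46.2%). In the genes with a region it began at a median of 17.5 bases before the 5′ end, and it lay before 0.205% of protein-coding genes. Around the summits of snoRNA regions, in the window used for the paired words, it lay in 2 of 159 regions (1.26%). The share was 1.18% of all regions and 2.07% of optimal ones. For most of the 10 genes with a region, the word thus lay outside that window. The word GNNNAGTNG, which holds the core of the tRNA A box, lay before 54 snoRNA genes, of which 38 had a region (70.4%; 56.4 to 82.0%), and 108 of the 292 without it did (37.0%; 31.4 to 42.8%). It lay before 3.63% of protein-coding genes. The letters of both words were again picked after the sequences at strong members were seen, and those genes are among the ones counted. At the snoRNA genes closest to the limit, the summit was 241 bp from F54E7.10 and 245 bp from B0213.18 (rank 14372) inside it, and 252 bp from ZK484.11 (rank 13855) and 257 bp from W02B9.3 (rank 18409) outside.

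tRNA genes with a region were spread over every amino acid. Of the 612 genes 607 matched an isotype in RefSeq, and the share with a region ran from 6 of 19 tRNA-Tyr genes (31.6%; 12.6 to 56.6%) to 10 of 14 tRNA-Phe genes (71.4%; 41.9 to 91.6%), leaving out tRNA-Sec, which has a single gene. These extremes overlapped. tRNA-Lys had 29 of 46 (63.0%), tRNA-Val 19 of 31 (61.3%), tRNA-Trp 4 of 12 (33.3%) and tRNA-Pro 16 of 42 (38.1%). Optimal regions were found at 7 of 46 tRNA-Lys, 5 of 34 tRNA-Ala, 5 of 41 tRNA-Glu and 5 of 42 tRNA-Pro genes. None was found at the 31 tRNA-Val, 14 tRNA-Phe, 20 tRNA-Met or 20 tRNA-His genes. The share over all tRNA genes was 7.52%, at which groups this small can hold none, so these counts do not set isotypes apart.

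Many tRNA genes are exact copies, which short reads inside the gene cannot tell apart. The 612 genes had 200 distinct sequences, and 469 genes had at least 1 identical copy. Of 57 sets of identical tRNA genes 39 held both genes with and genes without a region, 9 held only genes with one and 9 only genes without. In the largest set, of 29 tRNA-Gly genes, 17 had a region and 12 did not, and among 25 identical tRNA-Lys genes 19 had one. The share was 54 of 143 among tRNA genes with a sequence of their own (37.8%; 29.8 to 46.2%) and 59 of 99 among those in sets of over 20 (59.6%; 49.3 to 69.3%). The intervals of those ends did not overlap.

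By chromosome the share of tRNA genes with a region was 46 of 64 on III (71.9%; 59.2 to 82.4%), 38 of 57 on II (66.7%; 52.9 to 78.6%), 39 of 71 on IV (54.9%; 42.7 to 66.8%), 130 of 276 on X (47.1%; 41.1 to 53.2%), 29 of 66 on I (43.9%; 31.7 to 56.7%) and 29 of 78 on V (37.2%; 26.5 to 48.9%). The interval on III lay above those on I, X and V, that on II lay above that on V, and the other pairs overlapped. Among groups of tRNA genes within 1 kb of each other, the most genes with a region in a group was 3, at Y65A5A.t1 to Y65A5A.t4 and T01B4.t1 to T01B4.t4 (3 of 4 genes each) and at 2 groups of 3 genes, including K04C2.t1 to K04C2.t3. Longer groups had fewer, as at F22F1.t2 to F22F1.t7, where 2 of 6 genes had a region. 27 tRNA regions lay within 250 bp of more than 1 tRNA gene.

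The strongest tRNA region, at the tRNA-Gln gene R04A9.t1, had a combined signal of 160.1 (rank 328), with 107.3 in replicate 1 (rank 311) and 56.4 in replicate 2 (rank 348). C28G1.t1, a tRNA-Glu gene, followed with a signal of 149.3 (rank 369), ranks of 373 and 370, and a summit 1 bp from the 5′ end of the protein-coding gene C28G1.2. F47G6.t1, for tRNA-Arg, had 136.4 (rank 442). C18A11.t2, also for tRNA-Arg, had 132.6 (rank 465), and the replicate regions that overlapped it, ranked 82 and 133, were those of a stronger neighbour. M02F4.t1 and M02F4.t2 (tRNA-Gly and tRNA-Glu, rank 494), F15G9.t1 and F15G9.t2 (both tRNA-Ala, 547) and W09D6.t1 and W09D6.t2 (both tRNA-Pro, 578) each shared a region between 2 genes. Then came R11.t1 for tRNA-Tyr (612), the tRNA-Ser pair C53C7.t1 and C53C7.t2 (647) and F46G11.t1 for tRNA-Pro (654).

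K11H12.t1, the gene for the selenocysteine tRNA, had an optimal region with a signal of 129.9 (rank 484), 94.0 in replicate 1 (rank 406) and 27.0 in replicate 2 (rank 1213). Its summit lay 6 bp before the gene and 166 bp from the 5′ end of K11H12.8. In vertebrates this gene is known to use an upstream element of the snRNA kind with no need of the usual internal boxes. The bases before the gene are shown to set beside those of the snRNA genes, with the run GNAACC in capitals.
K11H12.t1, chrIV:658101-658180, plus strand: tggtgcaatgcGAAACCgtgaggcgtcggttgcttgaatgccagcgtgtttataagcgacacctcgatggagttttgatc
The full paired words did not occur in this stretch. The marked run lacks the last base of GNAACCC and was picked after the sequence was seen. How often it lies before other genes was not counted.

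The tRNA members nearest the limit were at Y69A2AR.t2 (244 bp, rank 20049) and R04D3.t2 (248 bp, rank 27552), and regions at ZK622.t1 (251 bp, rank 4622) and T09B4.t2 (256 bp, rank 3231) fell just outside. Inside tRNA genes the word GGTTCGA was found in 395 of 612 genes (64.5%), of which 205 had a region (51.9%; 46.8 to 56.9%), and 106 of the 217 without it did (48.8%; 42.0 to 55.7%), intervals that overlapped. Around summits the word lay in 23.0% of tRNA regions, against 1.18% of all regions and 2.07% of optimal ones. Members were chosen by nearness to tRNA genes, most of which hold the word, so this excess is partly fixed by that rule.

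Summits lay differently in the 4 classes. Counted on the gene's strand from its 5′ end, the median position was 1 bp inside for tRNA regions (quartiles -41 and 65.5), -42 bp for snoRNA regions (-98 and 37), -25.5 bp for snRNA regions (-60.25 and 79.25) and -80.5 bp for miRNA regions (-139.25 and 48.25). Among optimal regions the quartiles were -44.5 and 16 for tRNA, -83 and -29.5 for snoRNA and -58 and 2 for snRNA regions. The summit was upstream of the gene for 43 of 47 optimal snoRNA regions (91.5%) and 25 of 39 optimal tRNA regions (64.1%). The 100 bases before the gene held 37 of those 47 snoRNA summits. tRNA genes are short, with a median length of 72 bp, so summits up to about that distance downstream lay inside the gene.

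**Figure D5:**
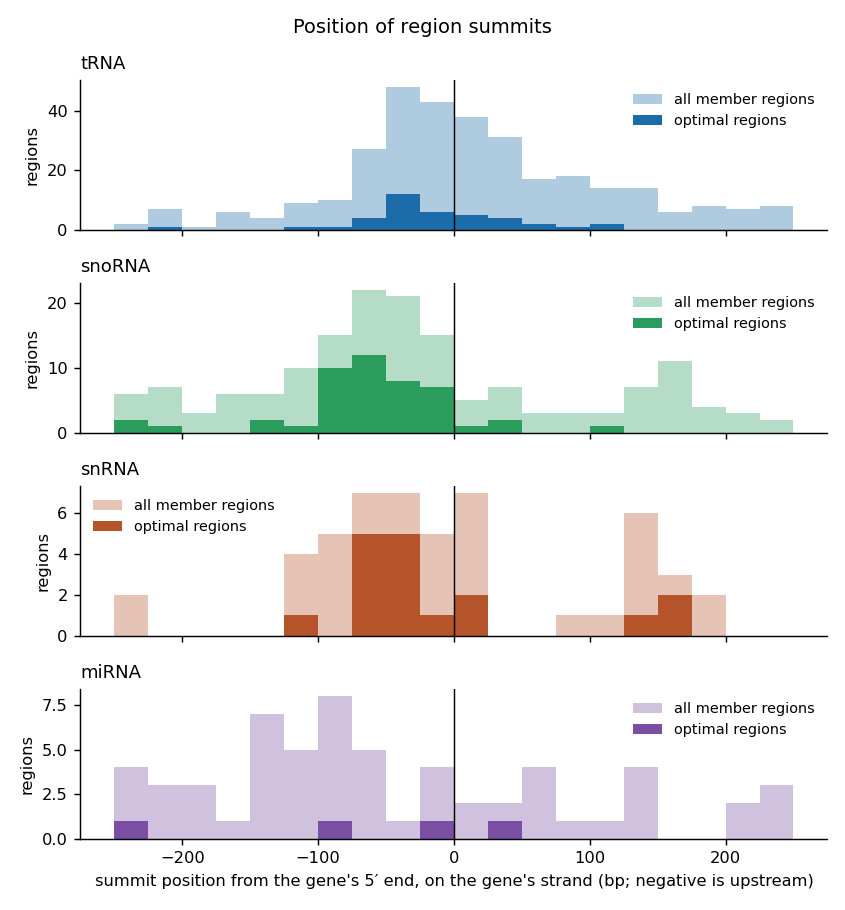
Position of region summits relative to the gene's 5′ end on the gene's strand (x axis, bp, negative is upstream) for each class; bars count regions in 25 bp steps, pale for all members and dark for optimal regions. Optimal snoRNA summits have quartiles of -83 and -29.5, while tRNA summits spread around the 5′ end.

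miRNA regions were the weakest and the least often optimal. The strongest, at mir-5549, had a combined signal of 953.1 (rank 19), 603.0 in replicate 1 (rank 19) and 350.8 in replicate 2 (rank 16), with a summit 12 bp before the hairpin gene and 156 bp from the 5′ end of rfc-4, which encodes a subunit of the clamp loader of DNA replication. mir-2216 had 267.0 (rank 118), with ranks of 135 and 89, and its summit lay at -242 bp, upstream of the gene, close to the limit. mir-8192 (rank 877) and mir-4929 (rank 1056) were the other two with an optimal region, with summits 380 bp from the 5′ end of flcn-1 and 98 bp from that of E01G4.3. Next came mir-5595 (1257), mir-86 with mir-8211 (1885), mir-53 (1887) and mir-52 (2157), which were not optimal. The region at mir-86 ranked 1494 in replicate 1 and 8608 in replicate 2, so its place depended on the replicate.

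The mature miRNAs of the 4 optimal genes, and those of 3 genes that share a seed, are given as in the RefSeq annotation of the same assembly, with the seed, bases 2 to 8, in capitals and T for U. Where a gene has 2 listed products the first is shown.
mir-5549, chrIII:6972039-6972058: cTTGTGAAattaacgtgagt
mir-2216, chrII:10867152-10867172: gCACATTTtaagtcggtaggc
mir-8192, chrII:6943941-6943963: cGGTCGAGcgagtctcagtcggc
mir-4929, chrII:13461777-13461798: aATGCACCacatcttacgctca
mir-51, chrIV:11026074-11026096: tACCCGTAgctcctatccatgtt
mir-52, chrIV:14034024-14034047: cACCCGTAcatatgtttccgtgct
mir-53, chrIV:11027653-11027676: cACCCGTAcatttgtttccgtgct
The 4 optimal genes had different seeds. mir-51, mir-52 and mir-53, of a family needed for embryonic development, shared the seed ACCCGTA and had regions of ranks 3871, 2157 and 1887. Seeds were compared only among genes with a region, so family members without one are not counted. None of the 4 genes in the cluster with mir-54, mir-55 and mir-56 had a region. The miRNA cluster with the most regions was mir-229, mir-64, mir-65 and mir-66, where 4 of 4 genes lay within 250 bp of a summit, at 2 different regions. lin-4 and let-7, the miRNAs that time larval development, had no region; these were looked up after the values were seen.

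Among miRNA genes the largest share was inside host genes of the same strand, where snoRNA genes had the smallest. 25 of 74 miRNA genes inside a protein-coding gene of the same strand had a region (33.8%; 23.2 to 45.7%), against 27 of 155 outside (17.4%; 11.8 to 24.3%) and 6 of 32 on the other strand (18.8%; 7.21 to 36.4%). The first interval overlapped the second slightly and the third widely. Of miRNA summits 20% lay within 250 bp of a protein-coding 5′ end, against 18.7% of all regions. The share was 7.23% for tRNA, 13.2% for snoRNA and 12% for snRNA regions. Near the limit, summits at mir-5551 (rank 3541) and mir-1829.2 (rank 23914) lay 244 bp from the gene inside it, and those at mir-49 (251 bp, rank 27768) and mir-62 (254 bp, rank 10578) lay outside.

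Words common in the optimal list were rarer among optimal members than among other optimal regions. They were picked from the optimal list of these same data, most of which lies outside the 4 classes. A lower share in optimal members is thus partly fixed by that choice. The word AGACGCAG lay within 50 bases of the summit, on either strand, in 111 of the 1099 optimal regions outside the 4 classes (10.1%) but in 2 of the 106 optimal members (1.89%). GCAAACAC lay in 7.46% of those outside and again in 2 of the 106 members. Over all members the shares were 1.37% and 1.03%, and over the whole list 1.61% and 0.997%. G and C content was higher on average in members: the mean over 101 bases at the summit was 45.0% ± 9.08 (SD over 318 tRNA regions), 45.4% ± 10.7 over 159 snoRNA regions, 45.7% ± 9.55 over 50 snRNA regions and 41.6% ± 10.0 over 60 miRNA regions, against 37.5% ± 9.73 over all regions and 46.6% ± 8.12 over optimal regions.

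Protein-coding genes that make or use these RNAs had regions as well. Of 86 listed symbols 76 matched the annotation, 42 of them had a region (55.3%) and 11 overlapped an optimal one (14.5%), beside 25% and 3.92% of all protein-coding genes. The lists were chosen with earlier results of these data known, so these shares are a description only. By list, a region lay at 5 of 12 genes of RNA polymerase III and its factors, 4 of 7 SNAPc genes, 7 of 11 for tRNA processing and export, 6 of 11 snoRNP genes, 13 of 20 snRNP genes and 7 of 15 of the miRNA pathway. None of the SNAPc genes overlapped an optimal region. The strongest was at fib-1, the fibrillarin that methylates RNA under box C/D snoRNA guidance (signal 266.8; rank 119, and 108 and 161 in the replicates). It was followed by pash-1, the partner of Drosha in miRNA processing (rank 342), tftc-1, a subunit of the factor that binds tRNA promoters (407), and elpc-2 of the Elongator complex that modifies tRNAs (506). ruvb-2, a helicase of snoRNP assembly (534), mafr-1, the Maf1 repressor of RNA polymerase III (652), lin-28, which blocks let-7 processing (887), dao-5 of the nucleolus (891), rnp-2 (1011) and trm-1 (1058) came next, all overlapping an optimal region.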

How the data were processed

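Per the labels, 2 biological replicates of 1 strain were profiled by ChIP-seq. Per the companion text, regions were called against 1 control alignment as input for IDR, for each replicate and for both combined. The sources used here give no aligner, caller or IDR cutoff. Each deposited region carries the authors' signal value, a −log10 q and a summit offset. The signal has no common scale between lists and was used to rank within a list. The −log10 q deposited by the authors was 2.93 for the strongest regions and was not used to order them. The ce11 lists held 30000 combined, 30000 replicate 1, 28005 replicate 2 and 1205 optimal regions. The number of reads is unknown. No region had identical coordinates in both replicate lists, and 14099 replicate 1 regions overlapped one of replicate 2.

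Genes came from Ensembl release 115 (WBcel235, the same assembly as ce11), and symbols, tRNA isotypes, mature miRNA positions and sequence from RefSeq. 22 mitochondrial tRNA genes were left out. Genes were tied to regions by distance alone. Intervals are 95% exact binomial intervals, which treat genes or regions as independent. No test was run, since there is 1 group. Python 3.11.15, pandas 2.3.3 and scipy 1.17.1 were used, and the distance and overlap functions were tested on simulated data. Members and lists were chosen with earlier results of these data known. Named genes were those at the 8 highest-signal members of each class, up to 12 optimal members, those beside the 250 bp limit, the clusters with most regions and up to 10 listed genes overlapping the optimal list. Alternatives covered the window, the overlap, each replicate, coding promoters and repeated sequences.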

Additional observations from a re-analysis of the deposited data

How the results depend on the processing

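Of 98 alternative settings, 67 left a share or a median rank inside the main value's 95% interval. Most of the others changed how near or how strong a region must be. With a window of 100 bp the share of genes with a region was 39.1% for tRNA, 26.3% for snoRNA, 25.6% for snRNA and 10.3% for miRNA, and with 500 bp it was 58.3%, 56.9%, 34.9% and 44.1%, so miRNA genes passed snRNA genes at the wider window. With the 10000 highest-signal regions the shares were 36.1% for tRNA, 29.5% for snoRNA, 22.5% for snRNA and 10.7% for miRNA genes. With the optimal list only they were 7.52%, 13.6%, 11.6% and 1.53%, which puts snoRNA and snRNA genes above tRNA genes. Leaving out a replicate gave 46.6 to 47.4% for tRNA, 39.9 to 42.2% for snoRNA, 25.6 to 32.6% for snRNA and 23.0 to 23.4% for miRNA genes. The median rank with one replicate was 4757 to 5396 for tRNA, 3212 to 3283.5 for snoRNA, 2396.5 to 4710 for snRNA and 11078 to 13499 for miRNA regions, so snoRNA and snRNA regions changed order between the replicates. The tRNA median rank was 3150.5 at 100 bp. The snoRNA median rank was 1420 at 100 bp and 5221 at 500 bp, where that of snRNA regions was 4549, and 44.0% and 26.3% of snoRNA regions overlapped the optimal list at those windows. Outside same-strand protein-coding genes, an alternative added after the data were seen, the snoRNA share was 52.1%. Presence in replicate 1 with at least 50% overlap was 84.6% for tRNA, and with a summit within 100 bp it was 79.2% for tRNA, 84.9% for snoRNA and 86.0% for snRNA regions. In replicate 2 the 50% overlap gave 76.7% for tRNA, 76.7% for snoRNA and 58.3% for miRNA regions, and the summit limit gave 69.8%, 69.8% and 48.3%. Without protein-coding 5′ ends within 500 bp the share of genes was 50.8% for tRNA, 40.8% for snoRNA, 29.4% for snRNA and 18.9% for miRNA, overlap with the optimal list was 14.7%, 31.2%, 48.6% and 4.88%, and the median rank of snRNA regions (2501) passed that of snoRNA regions (3100). Counting identical sequences once gave a tRNA share of 51.0%. A sequence then counted as having a region when any of its copies had one, which favours sequences with many copies. Among tRNA genes with a sequence of their own the share was 37.8% (54 of 143). No paired analysis was possible because there is 1 group. Depth is unknown, so a gene without a region may lie below what these lists could detect.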
